A study of Mus musculus with 16 samples.

Results

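Cry1 and Cry2, the cryptochrome genes of the mouse, were examined for BMAL1 binding in liver. They were represented by every interval of the deposited consensus table that the authors assigned to either gene at any distance, which gave 5 of 7043 intervals, 2 for Cry1 and 3 for Cry2, with 25 called peaks beneath them in the 8 BMAL1 peak lists. The study measured binding by chromatin immunoprecipitation and sequencing of liver from C57bl6 mice aged 8 to 16 weeks. Males and females under a Control or a Misaligned protocol were sampled at ZT0 or ZT12 (hours after lights on, in 12 h of light and 12 h of dark), and each of the 8 groups gave 1 BMAL1 library pooled from 3 to 4 mice. Mice of all groups, the controls included, ate a diet with 42% of calories from fat once the paradigm had begun, and the schedule of the misalignment is not given in the sources used here. The 8 IgG libraries were not analysed here. With 1 library a group there is no replicate error for any single group, and binding cannot tell how much of either gene was expressed or whether the pooled cells were all hepatocytes.

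Cryptochromes are the strongest repressors of the circadian feedback loop. BMAL1 and CLOCK bind E-boxes in the promoters of the Per and Cry genes and switch them on, and the PER and CRY proteins return to the nucleus, where CRY binds CLOCK and BMAL1 and stops them. CRY1 and CRY2 share this role but differ in timing and strength, and in liver both also restrain gluconeogenesis. A BMAL1 peak at Cry1 or Cry2 is thus the activator sitting on the gene of its own repressor.

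The promoter sequences are shown because the BMAL1 peaks of both genes covered them and because they differ in the E-boxes they hold. Both are the 250 bases before a RefSeq start of the gene (GRCm38.p6, minus strand, 5′ to 3′), with matches to CACGTG, the E-box, and to CACGTT or its reverse complement AACGTG, a related element, in capitals. For Cry2 the start used here and for all distances is 92434069, while the RefSeq gene extends to 92434085. For Cry1 the start and the gene end coincide at 85185054. The Cry1 window is chr10:85185055-85185304 and the Cry2 window is chr2:92434070-92434319.
Cry1: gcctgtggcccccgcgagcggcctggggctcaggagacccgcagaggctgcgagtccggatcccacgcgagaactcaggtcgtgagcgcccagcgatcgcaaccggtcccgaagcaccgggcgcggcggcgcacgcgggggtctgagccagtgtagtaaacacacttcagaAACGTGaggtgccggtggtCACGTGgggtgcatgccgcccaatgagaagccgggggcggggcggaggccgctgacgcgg
Cry2: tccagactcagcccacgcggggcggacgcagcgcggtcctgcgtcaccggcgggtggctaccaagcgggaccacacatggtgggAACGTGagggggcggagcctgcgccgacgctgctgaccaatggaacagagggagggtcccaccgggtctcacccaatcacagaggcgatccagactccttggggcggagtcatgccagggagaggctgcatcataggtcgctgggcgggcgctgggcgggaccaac

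The Cry1 promoter held 1 CACGTG, 55 to 60 bp upstream of the start, and 1 AACGTG, 74 to 79 bp upstream, which do not overlap. The Cry2 promoter held no CACGTG and 1 AACGTG, 161 to 166 bp upstream. The search covered both strands and ran to 50 bases past the start, so over 300 bases for each gene. CACGTG was present in 7.15% of all 32851 RefSeq promoter windows of that length, in 23.2% of the 2322 windows that a consensus interval touched, and in 37.2% of the 215 windows touched by an interval called in at least 4 libraries. CACGTT on either strand was in 4.68%, 9.13% and 12.1% of the same windows. Neither promoter held the D-box letters TTATGTAA (0.938% of all windows) or TTACGTAA (0.119%), bound by the PAR-bZIP factors, or the ROR element half-site AGGTCA (16.3%).

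BMAL1 was called at the Cry1 promoter and at a site in intron 3 of Cry2 in 8 of 8 libraries, and at the Cry2 promoter in 7. Of all intervals, 0.483% were called in all 8 libraries and 0.895% in at least 7. The Cry1 promoter interval covered chromosome 10 from 85184782 to 85185683, with the authors' distance to the transcription start at -178 bp. The Cry2 intron interval covered chromosome 2 from 92423499 to 92424270, at 8508 bp by the authors' distance, and also lay inside the lncRNA gene D930015M05Rik (92408892 to 92432308 in RefSeq). The Cry2 promoter interval ran from 92433801 to 92434592. The authors' table gave it a distance of -1804 bp, while the RefSeq start used here, 92434069, fell inside it. The other 2 intervals, in intron 1 of Cry1 and intron 5 of Cry2, were called in male misaligned ZT12 alone, as were 58.3% of all intervals. Control males had 3 of the 5 intervals called at ZT0, where 5.21% of all intervals were called, and 3 at ZT12 (4.06% of all). Misaligned males had 3 at ZT0 (26.4%) and 5 at ZT12 (78.7%). Control females had 2 at ZT0 (3.17%) and 3 at ZT12 (1.96%), and misaligned females 3 at ZT0 (18.8%) and 3 at ZT12 (3.08%).

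At the Cry1 promoter the fold enrichment, the authors' ratio of the summit to its local background, was 10.9 in control and 15.7 in misaligned males at ZT0, and 13.7 and 23.2 in the same groups at ZT12. Control and misaligned females had 6.56 and 11.7 at ZT0, and 4.62 and 6.65 at ZT12. The misaligned library had the higher value in 4 of 4 pairs of the same sex and time, and the female library the lower value in 4 of 4 pairs of the same treatment and time. Fold enrichment depends on the depth and background of a library, and the same directions were shared by 32.4% (misaligned higher) and 52.9% (female lower) of the 34 intervals called in all 8 libraries.

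Behind these ratios stood 55 to 203 fragments at the Cry1 summit, recovered from the deposited values. In male control ZT0 there were 85 fragments (exact Poisson 95% interval 67.9 to 105) over a local background of 6.87. In male misaligned ZT12 there were 203 (176 to 233) over 7.80. Female control ZT12, with the lowest ratio, had 80 fragments (63.4 to 99.6) over a background of 16.5, the highest of the 8, so at nearly as many fragments as male control ZT0 its ratio was lower. These intervals cover counting error only. By -log10 q, which was 22.9 to 199.6 here, the Cry1 peak ranked 20 of 373 and 19 of 1864 in the male control and misaligned lists at ZT0, and 29 of 290 and 14 of 5542 at ZT12. Among females it ranked 12 of 225 and 19 of 1330 at ZT0, and 36 of 141 and 23 of 221 at ZT12.

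At the Cry2 promoter the fold enrichment in males was 7.19 (control) and 12.3 (misaligned) at ZT0, and 10.7 and 22.7 at ZT12. Misaligned females had 12.0 at ZT0 and 7.73 at ZT12, and control females 6.42 at ZT12. No peak was called there in female control ZT0, the list in which the Cry2 intron site had its lowest ratio. That library was also the one that missed 62.1% of the 29 intervals called in exactly 7 libraries (18 of 29). In its list the 160 peaks with a local background of 5 to 10 fragments had at least 18 fragments at the summit, with a median of 25. The number of fragments at the Cry2 promoter in that library is unknown, so the missing call is not a measured absence of binding. Of all intervals, 17.6% were called in female misaligned ZT0 and not in female control ZT0, 4.19% in male control ZT0 and not in female control ZT0, and 1.36% in female control ZT12 and not in female control ZT0.

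At the Cry2 intron site control males had fold enrichments of 5.74 at ZT0 and 13.5 at ZT12, and misaligned males 11.1 and 19.4. The values of control females were 3.76 and 5.64, and those of misaligned females 10.5 and 5.67. The misaligned library was again the higher of 4 of 4 pairs, although the female ZT12 values were nearly equal. Summit fragments ranged from 33 (22.7 to 46.3) in female control ZT0 to 167 (143 to 194) in male misaligned ZT12. The weakest call, in female control ZT0, had a -log10 q of 5.75 and ranked 55 of 225.

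**Figure D1:**
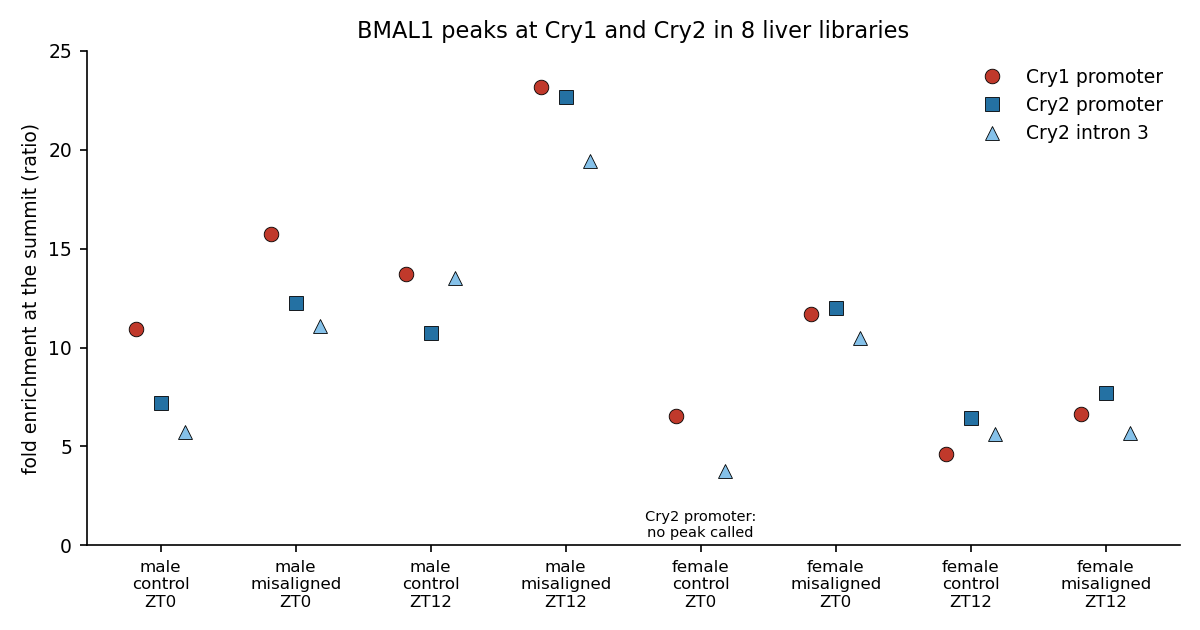
Fold enrichment at the summit (a ratio, linear axis from 0) for the 3 recurrent sites in each of the 8 BMAL1 libraries, 1 point per site and library with no error bars because there were no replicates. All 3 sites were highest in male misaligned ZT12 (19.4 to 23.2), and the Cry2 promoter has no point in female control ZT0.

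The 2 intervals called in a single library were weak beside these. In male misaligned ZT12 the peak in intron 5 of Cry2 (chromosome 2, 92421704 to 92422100) had a fold enrichment of 5.58 with 52 fragments and ranked 677 of 5542. It stood 10490 bp from the start by the authors' table, which also placed it in intron 2 of 3 of a second, overlapping gene. The peak in intron 1 of Cry1 (chromosome 10, 85183862 to 85184310) had a ratio of 3.24 with 21 fragments, a -log10 q of 3.29 and rank 4129. Within 100 kb of these intervals the table held 1 further interval, nearest Slc35c1, a fucose transporter gene next to Cry2, also called in male misaligned ZT12 alone, with a fold enrichment of 3.72.

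Whether BMAL1 sat more strongly on one cryptochrome gene than on the other was compared within each library, where depth is shared. Each gene was represented by its interval called in most libraries, which for Cry2 was the intron site and not the promoter. The Cry2 intron site had a lower fold enrichment than the Cry1 promoter in 7 of 8 libraries, all but female control ZT12. The mean log2 difference was -0.33 (SD 0.40, n = 8, p = 0.0703 by an exact sign-flip permutation test, two-sided like all those below), so Cry2 intron was on average 0.798 times Cry1, which did not pass 0.05. Leaving out 1 of the other 7 libraries gave an exact p of 0.0781 to 0.141. Without female control ZT12, the single library of the other sign, the mean was -0.41, and the exact p of 0.0156 is then the smallest that 7 libraries allow and adds no support. On the fragments above background the mean was -0.29 over all 8 libraries (exact p = 0.0234). With the fold enrichment summed over all called intervals of each gene the direction turned, to 0.63 (exact p = 0.0312), since that sum counts both Cry2 sites.

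The promoters of Cry1 and Cry2 were closer to each other. The log2 difference of the Cry2 from the Cry1 promoter ranged from -0.60 in male control ZT0 to 0.48 in female control ZT12, with 4 libraries lower and 3 higher. The lower ones were the 4 male libraries and the higher ones the 3 female libraries, a split seen only after the values were known and not tested. Female control ZT0 gave no difference, since the Cry1 promoter was called there (55 fragments) and the Cry2 promoter was not. Its calls were thus not on the side of the other female libraries. The mean was -0.088 (SD 0.37, n = 7, exact p = 0.562), and the spread leaves differences of either sign possible. Within Cry2, the promoter exceeded the intron site in 6 of 7 libraries by 1.11 to 1.36 times, and in male control ZT12 it was 0.795 times the intron site. In female control ZT0, left out here, the intron site was called (33 fragments) and the promoter was not. Both comparisons of the Cry2 promoter thus cover only libraries in which it was called, which favours the promoter. The mean log2 difference of 0.17 (SD 0.24, n = 7, exact p = 0.109) did not pass 0.05. Without male control ZT12, the single library of the other sign, it was 0.25, with an exact p of 0.0312 that one-signed values fix at its minimum, and leaving out any other library gave an exact p of 0.188 to 0.219.

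The position of the BMAL1 summit set the 3 sites apart. At the Cry2 promoter the 7 summits fell within 27 bp of each other, 151 to 178 bp upstream of the start, and each was 3 to 12 bp from the AACGTG element printed above. In the Cry2 intron the 8 summits spanned 30 bp, from 92423884 to 92423914. At the Cry1 promoter they spanned 216 bp. Among 30 intervals with exactly 1 peak in each of 8 libraries the median span was 64.5 bp, and the Cry1 span was the second widest. It was the widest of the 23 such intervals with no peak of high local background, defined as at least 5 times the lowest background of the list.

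The spread at Cry1 followed time. The 4 ZT0 summits lay 243 bp (male control), 288 bp (male misaligned), 181 bp (female control) and 230 bp (female misaligned) upstream of the start. In the same order the ZT12 summits lay 114, 149, 72 and 104 bp upstream. The groups did not overlap, and the ZT12 summit was nearer the start in 4 of 4 pairs (a one-way move was found at 13.3% of the 30 intervals described), with a mean difference of -126 bp (exact sign-flip permutation test over 4 pairs, p = 0.12, the smallest p that 4 pairs allow). ZT0 and ZT12 summits did not overlap at 6.67% of the 30 intervals (2 of 30), the other one being at Per1, a period gene, with a mean difference of -32.2 bp in genome coordinates.

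Summits at Cry1 also lay farther upstream in misaligned than in control libraries in 4 of 4 pairs, by a mean of 40.2 bp (exact p = 0.12). This held for 3.33% of the 30 intervals, so for Cry1 alone. Female summits were nearer the start than male summits in 4 of 4 pairs, with a mean difference of -51.8 bp (exact p = 0.12, with a one-way move in 16.7% of the intervals). The ZT12 summits were 2 to 70 bp from the AACGTG and 12 to 89 bp from the CACGTG, and the ZT0 summits were 102 to 209 bp and 121 to 228 bp away. The centre of the called peak did not separate the times in the same way, with differences of 71.0, -50.5, -6.0 and -72.5 bp and a mean of -14.5 bp (exact p = 0.625). All 8 Cry1 peaks covered both elements, since each of them included the stretch from 85184993 to 85185438. The summit positions were examined after they had been seen, so these p-values are descriptions.

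**Figure D2:**
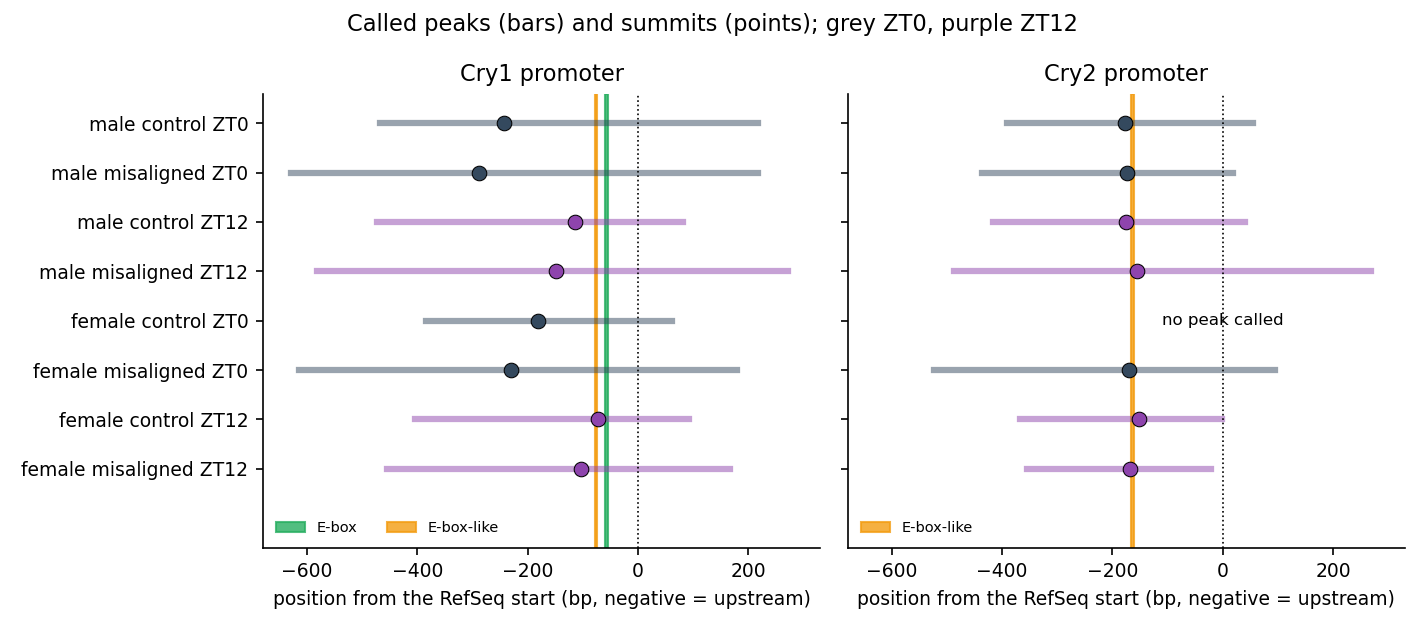
Extent of each called peak (bar) and its summit (point) at the Cry1 promoter (left) and Cry2 promoter (right) by library, as the distance in bp from the RefSeq start with upstream negative; grey marks ZT0, purple ZT12, and vertical bands mark the E-box and the related element. Cry2 summits sit within 12 bp of the band, and Cry1 summits at ZT0 (181 to 288 bp upstream) do not overlap those at ZT12 (72 to 149 bp).

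For comparison, 96 promoter windows of 88 genes held CACGTG or CACGTT on either strand under an interval called in at least 4 libraries. The median distance from summit to the nearest such element within the window was 8 bp at Cry2, 86 bp at Cry1 and 29 bp at the middle window. Sequence beyond a window was not searched, so a closer element could have been missed where a summit lay outside it or near its edge. At Cry1 the searched bases began 250 bp upstream of the start. The male misaligned ZT0 summit (288 bp upstream) lay outside them, and the male control ZT0 summit (243 bp upstream) lay near their edge. Every summit was within 12 bp of an element of the window in 2 of the 96 windows (2.08%), those of Cry2 and of Nptn, the gene of the cell adhesion protein neuroplastin. The farthest summit was at least as distant as that of Cry1 (209 bp) in 22.9% of the windows. Windows differ in how many libraries they have, which moves the farthest value. Some windows share the same peak, and in some the summit lay far outside the window, up to 1538 bp from the element at Nr1d1.

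Within the core clock, the Cry2 intron site was among the weakest of the shared intervals, and the Cry1 promoter lay in the lower part in most libraries. Per library, 10 to 13 of the 22 genes on that list, Cry1 and Cry2 included, had a peak within 10 kb. Distances were the authors', and 0.242% to 8.9% of 21900 protein-coding genes had such a peak. In female control ZT0 Cry2 counted through its intron site alone, at 8508 bp by the authors' distance. The summit there lay beyond 10 kb from the RefSeq start used here. In the 34 intervals called in all 8 libraries, 14 belonged to the core clock list, 12 of them to 10 other genes such as Per1, Per2, Nr1d1 and Dbp. The Cry1 promoter placed 6th to 14th of these 14 by fold enrichment, at 10 or lower in 6 libraries, and was last in female control ZT12. The Cry2 intron site placed 12th to 14th in all 8 libraries. The median fold enrichment of the 12 others was 11.1 in male control ZT0, where Cry1 had 10.9 and Cry2 5.74, and 27.4 in male misaligned ZT12, where Cry1 had 23.2 and Cry2 19.4. In female control ZT0 Cry1, at 6.56, was above the median of 5.86.

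**Figure D3:**
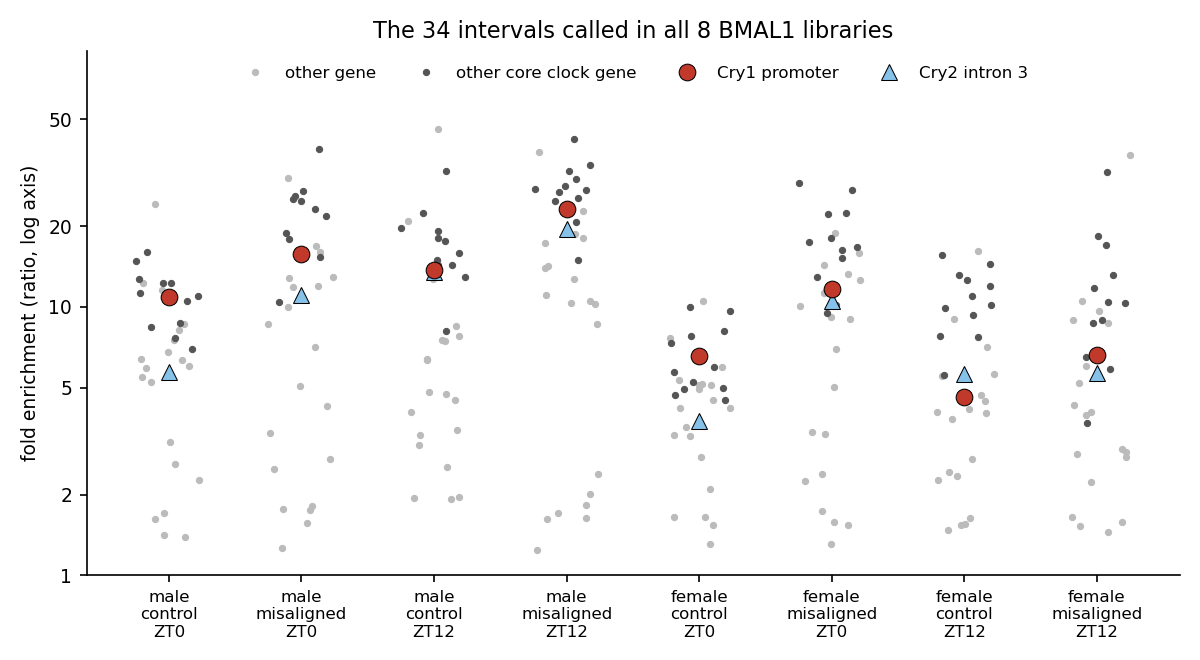
Fold enrichment (ratio, log axis) of the 34 intervals called in all 8 libraries, 1 point per interval and library, the points of other intervals spread sideways for legibility. Among core clock intervals (dark points are the 12 others) Cry1 (circle) placed between 6th and 14th of 14 and the Cry2 intron site (triangle) between 12th and 14th.

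Whether treatment, sex or time changed binding at Cry1 and Cry2 relative to other shared sites was addressed with a relative strength. This is the log2 of summit fragments minus local background, less the median of the same quantity over the 33 other intervals called in all 8 libraries. At the Cry1 promoter, control and misaligned males had -0.12 and -0.16 at ZT0, and -0.58 and 0.25 at ZT12. Female values were 0.063 and -0.095 at ZT0, and -0.72 and -0.52 at ZT12. The control libraries were thus lower at ZT12 than at ZT0 in both sexes. ZT12 minus ZT0 averaged -0.32 (SD 0.51, lower in 3 of 4 pairs, exact p = 0.25, and 0.5 after adjustment over 6 tests). It was -0.41 against core clock intervals, -0.23 without intervals of high background and -0.086 with fold enrichment (exact p = 1 for the last). The exception was misaligned males, at 0.41.

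At the Cry2 intron site control and misaligned males had -0.58 and -0.40 at ZT0, and -0.38 and -0.089 at ZT12. In females it was -0.88 and -0.45 at ZT0, and -0.78 and -0.74 at ZT12. Female minus male averaged -0.35 (SD 0.25, lower in 4 of 4 pairs, exact p = 0.12, adjusted p = 0.375), and the same sign, at -0.12 to -0.23, was found with the other references and with fold enrichment. Misaligned minus control averaged 0.24 (SD 0.17, higher in 4 of 4 pairs, exact p = 0.12, adjusted p = 0.375), but the direction turned to -0.057 when intervals of high background left the reference to -0.14 against core clock intervals alone and to -0.063 with fold enrichment. ZT12 minus ZT0 averaged 0.076 (exact p = 0.625, adjusted p = 0.75) turned to -0.0090 against core clock intervals, and was 0.25 without intervals of high background (exact p = 0.12) and 0.47 with fold enrichment (exact p = 0.25). At Cry1 misaligned minus control averaged 0.21 (exact p = 0.5, adjusted p = 0.75), and turned to -0.13, -0.18 and -0.10 under the same 3 alternatives. Female minus male at Cry1 averaged -0.17 (exact p = 0.75) and turned to 0.018 and 0.019 under the first 2 of them. With fold enrichment it was -0.45 (exact p = 0.12). No p under 0.12 was possible with 4 pairs, so none of the 6 tests could pass 0.05. How many shared intervals had a one-way difference in relative strength was not counted. In fold enrichment, 52.9% of the 34 shared intervals were lower in females in 4 of 4 pairs. In 32.4% the misaligned library was the higher in 4 of 4 pairs.

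The Cry2 promoter, with 7 libraries, was not tested in this way. Its relative strength was -0.43 and -0.062 in male control and misaligned livers at ZT0, and -0.93 and 0.21 at ZT12. Female control and misaligned values were -0.58 and -0.46 at ZT12, and the female misaligned value at ZT0 was -0.16. With this reference the misaligned value was the higher in 3 of 3 pairs. Male ZT12 was the pair of treatments with the widest gap at both promoters. The other references were not applied to the Cry2 promoter, and the share of shared intervals with the same direction was not counted. At the Cry1 promoter and the Cry2 intron site the mean treatment difference changed sign under those references.

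**Figure D4:**
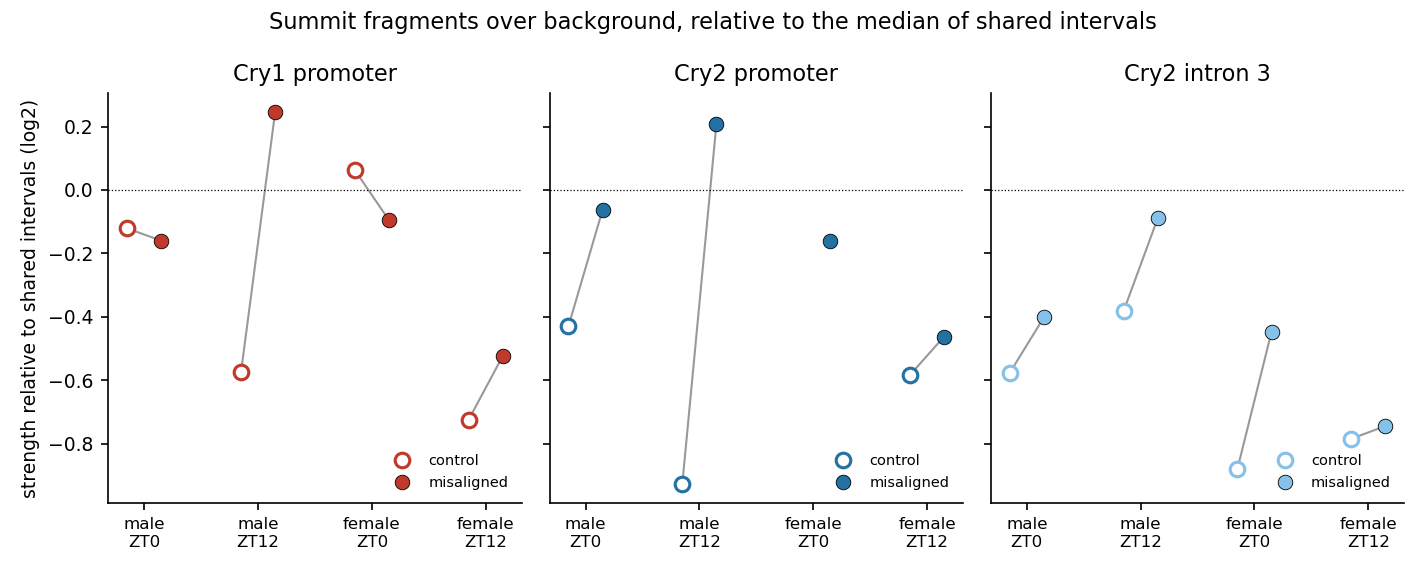
Relative strength (log2, 0 is the median of the shared intervals, dotted) of each site, control (open) joined to misaligned (filled) for each sex and time, 1 library a point. The steepest lines are male ZT12 at both promoters (-0.58 to 0.25 at Cry1 and -0.93 to 0.21 at Cry2), and at Cry2 intron 3 the misaligned point is the higher in 4 of 4 pairs, a mean of 0.24 that turns to -0.057 without intervals of high background.

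The intervals whose rank pattern was most like that of each site were found by the mean absolute difference in log2 rank over 8 libraries, a library without a call taking the list length plus 1. Closest to the Cry1 promoter were Bnip3 (0.57), a mitophagy receptor gene, Ciart (0.72), a clock repressor, and the Cry2 intron site (0.80). Closest to the Cry2 promoter were Nptn (0.33), 1810013L24Rik (0.55) and Klf15 (0.56), a Kruppel-like factor, all 3 uncalled in female control ZT0 as well. The measure itself favours that shared missing call, because of the rank it gives to a library without a call. Nptn ranked 37, 24, 31 and 19 in the male lists, where the Cry2 promoter ranked 39, 21, 38 and 15. The Cry2 intron site was most like Nptn (0.43), Bhlhe40 (0.46), a clock repressor, and 1810013L24Rik (0.59).

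Genes that govern cryptochrome protein were listed as well, and 4 of them had a BMAL1 peak within 10 kb in at least 1 library. Of the 9 such genes, Usp2, a deubiquitinase, had a peak within 10 kb in 6 libraries, with a highest -log10 q of 96.0. A peak at Ddb1, a ubiquitin ligase adaptor, was called in 3 (highest -log10 q 14.0), namely the misaligned male lists of both times and the misaligned female list of ZT0. Dyrk1a, a kinase that marks CRY2 for turnover, and Prkaa2, a catalytic subunit of AMP-activated kinase, had one in male misaligned ZT12 alone (fold enrichment 5.41 and 3.68). Gsk3b had one there beyond 10 kb. Fbxl21, which encodes an F-box protein, and Prkaa1, Dtl and Usp7 had none in any library. Counts were 4 of 9 in male misaligned ZT12, where 8.9% of 21900 protein-coding genes had such a peak, 2 in male misaligned ZT0 (3.52%) and female misaligned ZT0 (2.94%), 1 in male control ZT0 (0.804%), male control ZT12 (0.484%) and female misaligned ZT12 (0.457%), and 0 in female control ZT0 (0.411%) and female control ZT12 (0.242%).

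Of 5 genes through which cryptochromes act in liver, Pck1, the rate-limiting enzyme gene of gluconeogenesis, had a peak within 10 kb in 4 libraries. These were male misaligned ZT0, male control ZT12, male misaligned ZT12 and female misaligned ZT0, with a highest -log10 q of 8.93. In the same order, 3.52%, 0.484%, 8.9% and 2.94% of 21900 protein-coding genes had a peak within 10 kb. Nr3c1, the glucocorticoid receptor, had one in male misaligned ZT12 and female misaligned ZT0 (7.51). G6pc, the last enzyme of glucose release, was nearest to a peak at any distance in 6 libraries, a count with no share of all genes beside it. Within 10 kb it had one in male misaligned ZT12 alone, and Gnas and Creb1 had none. The strongest peak of each cryptochrome gene exceeded the strongest of these, with a highest -log10 q of 199.6 at Cry1 and 196 at Cry2, against 17.5 at G6pc.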

How the data were processed

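BMAL1 binding was taken from 8 deposited peak lists, 1 for each BMAL1 library. The tools named in the submitters' processing notes are BWA 0.7.17-r1188 and MACS2 2.2.7.1, with GRCm38 as the build. The q threshold and the use of IgG as control are not given in the sources used here. The lists hold, by the authors' peak caller, a score, a fold enrichment (a ratio) and the -log10 of p and of q, none of them normalized between libraries. A deposited consensus table gave intervals, calls and nearest genes, and its calls were checked against the lists. Read depth is unknown. The lowest local background, which rises with depth and fragment length, was 4.25 to 6.16 fragments.

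Whole fragments and local background at each summit were recovered from fold and p (pseudocount 1, relative tolerance 0.0001) for all 9986 peaks, and for 100% of 1000 simulated peaks. Sites were compared within libraries or in 4 pairs by exact two-sided sign-flip permutation tests, with Benjamini-Hochberg adjustment over 6 tests (numpy 2.4.6, scipy 1.17.1, pandas 2.3.3, Python 3.11.15). Motifs were searched in RefSeq promoter windows, where Cry1 and Cry2 each matched 1. Named genes were Cry1, Cry2, the 3 intervals most like each recurrent site, members of 3 lists (22 core clock genes, 9 regulators of cryptochrome protein, 5 genes it acts on) and neighbours within 100 kb; Per1 in the summit comparison was named after its value was seen. The genes and lists were chosen with earlier results of these data known. One listed gene is not reported here. The sequence under the Cry2 intron site was not used here.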

Additional observations from a re-analysis of the deposited data

Results flagged for a closer look

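At the Cry1 promoter the misaligned minus control difference in relative strength had opposite signs at the 2 times. It was -0.039 in males and -0.16 in females at ZT0, and 0.82 in males and 0.20 in females at ZT12. The female minus male difference at the same site was 0.18 in controls and 0.065 in misaligned livers at ZT0, and -0.15 in controls and -0.77 in misaligned livers at ZT12. Each side of these contrasts rests on 2 pairs of single libraries, both contrasts use the same 8 libraries, and the difference between times was not tested. The values by time are given for 1 reference only, and the means of both contrasts changed sign against core clock intervals.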

How the results depend on the processing

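The call counts were kept with peaks of -log10 q of at least 3 and without peaks of high local background. At -log10 q of at least 5 the Cry1 intron 1 site was called in 0 libraries, and with overlap of at least 50% of both peak and interval the Cry2 intron 3 site was kept in 5, the Cry2 promoter in 5 of 7 and the Cry1 promoter in 7 of 8. Within 1 kb of the authors' start, 2 of the 5 intervals were left. The Cry2 intron minus Cry1 promoter difference was -18.1 on the -log10 q scale (exact p = 0.0391), -0.29 on fragments above background (exact p = 0.0234) and 0.63 with folds summed over intervals (exact p = 0.0312), and leaving out 1 library gave -0.41 to -0.24. The Cry2 promoter minus intron difference ranged from 0.12 to 0.25 in the same way.

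Relative strength depended on its reference. Misaligned minus control turned to -0.18 against core clock intervals, -0.10 with fold enrichment and -0.13 without intervals of high background at Cry1, and to -0.14, -0.063 and -0.057 at Cry2. Female minus male at Cry1 turned to 0.019 against core clock intervals and 0.018 without high background, but was -0.45 with fold enrichment. ZT12 minus ZT0 at Cry2 turned to -0.0090 against core clock intervals. The cause was not tested. Leaving out 1 pair gave 0.0015 to 0.33, -0.28 to 0.033 and -0.56 to -0.16 for treatment, sex and time at Cry1, and 0.17 to 0.30, -0.45 to -0.25 and -0.0026 to 0.20 at Cry2. For the Cry1 summit position it gave 37.3 to 43.0 bp, -55.0 to -48.3 bp and -131 to -121 bp.

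The Cry2 promoter in place of the intron, the Cry2 promoter against the intron and the summit positions were added after seeing the data. No paired analysis was possible because every library carries the same replicate number, which leaves no replicate number to block on; the 4 pairs used above match groups that differ in 1 factor. Read depth is unknown, and a missing call gives no measured level. In female control ZT0, peaks called at a local background of 5 to 10 fragments had at least 18 fragments. The background at the uncalled Cry2 promoter is unknown.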
